A study of Homo sapiens with 10 samples.

Results

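The transforming growth factor beta (TGF-beta) core examined here consists of 10 genes: the ligands TGFB1 and TGFB2, the receptors TGFBR1, TGFBR2 and TGFBR3, the signal carriers SMAD2, SMAD3 and SMAD4, and the SMAD repressors SKI and SKIL. They were taken by symbol from the 58050 Ensembl identifiers of the table, and each of the 10 matched a single identifier. HCT116 is an established human colorectal carcinoma line. The 2 groups were HCT116-WT and HCT116-CD276KO, with 5 biological replicates sequenced in each. Whether each replicate came from a flask of its own is not stated, so the p-values measure the spread between these libraries, which may be partly technical. The knockout cells had been electroporated with Cas9 and a guide against CD276 and descend from a single cell clone, so that a difference between the groups cannot be told apart from a difference of this clone. A scrambled guide is named as the control of the editing, and whether the sequenced HCT116-WT cultures had received it is not stated.

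In this pathway TGF-beta is secreted in a latent form and, once released, binds the type II receptor TGFBR2, which then phosphorylates the type I receptor TGFBR1. TGFBR1 phosphorylates SMAD2 and SMAD3, which join SMAD4 and enter the nucleus, where SKI and SKIL repress the complex on its target genes. In colon epithelium the pathway restrains growth, and colorectal cancers with defective mismatch repair often lose it through frameshifts in a run of adenines in TGFBR2. HCT116 is a known example of such a line, which limits it as a model of TGF-beta signalling.

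The run is shown because the line is known for frameshifts in it. In the hg38 reference it lies on the plus strand in exon 3 of TGFBR2 (ENSG00000163513), at codons 125 to 128 of the 567 codons of the canonical transcript. The capitals mark its 10 adenines, and the interval chr3:30650360-30650409 reads as follows.
TGFBR2 adenine run: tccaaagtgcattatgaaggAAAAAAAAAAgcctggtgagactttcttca
The TPM below cover transcripts of the whole gene and do not show the length of the run in these cells.

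The deposited values are TPM, the share of a gene among all transcripts of a library scaled to a sum of 1000000, and they are corrected for transcript length and can be compared between genes. TPM do not keep the number of reads behind a value, so the counting error of a single value cannot be computed from them and the precision comes from the 5 libraries of a group. In such bulk RNA, fewer cells of a kind and less RNA per cell cannot be told apart. CD276, the edited gene, stood at 45.3 ± 6.17 TPM (SD, n = 5) in HCT116-WT and 5.46 ± 1.21 TPM (SD, n = 5) in HCT116-CD276KO. Of 7 epithelial markers, 5 reached 1 TPM, and they summed to between 4173 and 4942 TPM in HCT116-WT and between 3306 and 3773 TPM in HCT116-CD276KO, while the intestinal markers CDX1 and VIL1 were at or near 0 in every library. The 5 detected markers, EPCAM, KRT8, KRT18, KRT19 and CDH1, were all lower in HCT116-CD276KO with adjusted p-values under 0.05 from limma. Of all genes tested 4.09% were. CDH1 stood at 47.7% of its HCT116-WT mean and the other detected markers at between 74.6% and 81.6%. The part of these marker differences in the differences below was not tested. Fibroblast markers summed to at most 13.8 TPM, leukocyte markers, of which CD68 alone reached 1 TPM, to at most 15.0 TPM, and endothelial markers to at most 0.59 TPM. HCT116-CD276KO replicates 2 and 3 stood apart from the other 8 libraries in their trend with length, with lower values the longer the transcript. The Spearman correlation of their deviations with length, over genes, was -0.52 and -0.49, against -0.09 to 0.43 in the others. With GC content it was 0.48 and 0.023, against -0.34 to 0.61 in the others, where HCT116-WT replicate 3 was the highest.

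In HCT116-WT cells the SMADs were the most abundant of the 10 transcripts. SMAD2 stood at 81.1 ± 7.09 TPM, SMAD4 at 64.9 ± 6.33 TPM and SMAD3 at 59.4 ± 3.71 TPM (SD, n = 5 each). All 3 were well expressed, with SMAD2 above 84.9% of the genes tested. TGFB1 at 30.7 ± 2.65 TPM and SKI at 28.2 ± 4.71 TPM followed (SD, n = 5 each). Below them came TGFBR1 at 18.4 ± 1.42 TPM, TGFBR2 at 10.4 ± 0.702 TPM, SKIL at 7.55 ± 1.17 TPM and TGFBR3 at 5.25 ± 1.36 TPM (SD, n = 5 each). Both kinase receptors were thus below the SMADs that carry their signal. TGFB2 was last, at 0.262 ± 0.041 TPM (SD, n = 5). In this order the ranges of SMAD2 and SMAD4, of SMAD4 and SMAD3, of TGFB1 and SKI, and of SKIL and TGFBR3 overlapped over the 5 libraries, and those of the other neighbours did not.

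**Figure D1:**
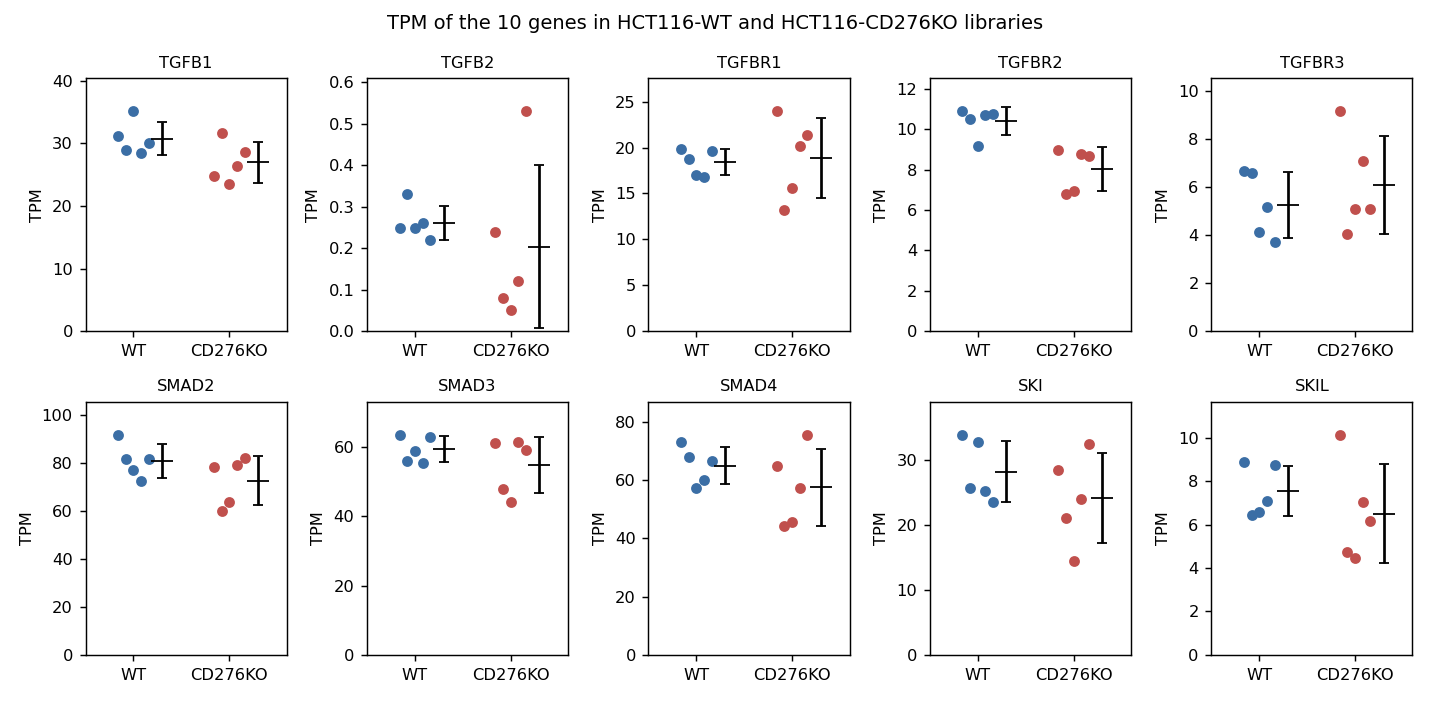
TPM of each of the 10 genes (vertical axis, from 0, with a scale of its own in each panel) in 5 HCT116-WT libraries (blue) and 5 HCT116-CD276KO libraries (red), with 1 point per library in the order of replicates 1 to 5 and the mean ± SD beside them. TGFBR2 is the gene whose groups do not overlap, with HCT116-WT between 9.18 and 10.9 TPM and HCT116-CD276KO between 6.79 and 8.98 TPM.

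The question put to these genes was whether their transcript levels differed between HCT116-CD276KO and HCT116-WT cells. With limma on log2(TPM + 1), 9 of the 10 genes had a mean of at least 1 TPM and were tested among 13581 genes, and 0 of the 9 had a Benjamini-Hochberg adjusted p-value under 0.05. Over all genes tested 4.87% passed, 4.09% as lower and 0.781% as higher in HCT116-CD276KO. At an unadjusted p-value under 0.05 there was 1 of the 9, TGFBR2, where 21.9% of all genes tested passed. The groups did not overlap in 1 of the 9, again TGFBR2, against 7.61% of all genes tested. Differences are given as log2 fold changes of TPM + 1, HCT116-CD276KO minus HCT116-WT, which understate the change of genes with low TPM. They were below 0 in 7 of the 9 genes and had a median of -0.19, while 68.1% of all genes tested were below 0 with a median of -0.09.

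Of the ligands, TGFB1 (ENSG00000105329, chromosome 19, 41301587 to 41353922, minus strand) is the most widely expressed form of the ligand. Its HCT116-WT values, given here and below in the order of replicates 1 to 5, were 31.1, 28.9, 35.1, 28.49 and 30.09 TPM. The knockout values were 24.79, 31.59, 23.43, 26.36 and 28.62 TPM. Replicate 2 of the knockout lay above 4 of the HCT116-WT libraries, so that the groups overlapped. Its log2 fold change was -0.19 (95% interval -0.38 to 0.011, adjusted p-value 0.249 from limma). TGFB2 (ENSG00000092969, chromosome 1, 218345336 to 218444619, plus strand) was under 0.6 TPM in every library and was not tested. It ranged from 0.22 to 0.33 TPM in HCT116-WT and from 0.05 to 0.53 TPM in HCT116-CD276KO, where replicate 5 was the highest of all 10 libraries.

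TGFBR2, the ligand-binding type II receptor kinase, is encoded on the plus strand of chromosome 3 (30606601 to 30694142). The 5 HCT116-WT libraries had 10.88, 10.52, 9.18, 10.72 and 10.77 TPM of it. The 5 knockout libraries had 8.98, 6.79, 6.92, 8.79 and 8.69 TPM. Each knockout library lay below each HCT116-WT library, although HCT116-WT replicate 3 and HCT116-CD276KO replicate 1 were only 0.2 TPM apart. The knockout mean was 8.03 ± 1.08 TPM (SD, n = 5), or 77.1% of the HCT116-WT mean. The log2 fold change was -0.34 (standard error 0.095, 95% interval -0.55 to -0.14), and the adjusted p-value from limma was 0.0629, just short of the threshold. Permuting the group labels of these 10 values, an exact permutation test (two-sided) gave p = 0.00794, the smallest that this design allows. Any gene whose groups do not overlap gets this p-value, as 7.61% of all genes tested did. It restates the lack of overlap and is not adjusted for the number of genes. For the other 9 genes the same exact permutation test gave p-values between 0.0952 and 0.960.

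The call for TGFBR2 moved with the handling of the libraries. Once trends with length and GC content had been taken out of each library, the log2 fold change was -0.18 and the adjusted p-value 0.0399 from limma, and the groups did not overlap either. In that fit 9.64% of all genes passed, against 4.87% on the TPM as deposited. The unadjusted p-values of TGFBR2 from limma were close, at 0.00336 and 0.00366. Leaving out HCT116-WT replicate 3 or HCT116-CD276KO replicate 1 also took it past the threshold, with adjusted p-values of 0.0499 and 0.0467 from limma. With any other library left out it did not pass, with adjusted p-values of up to 0.154 from limma. Nor did it pass with median-of-ratios scaling or quantile normalization, with adjusted p-values of 0.0753 and 0.106 from limma. Without HCT116-CD276KO replicates 2 and 3, a choice made after seeing the data, the log2 fold change was -0.21 and the adjusted p-value 0.208. The part of the length trend in the difference was not tested beyond these fits.

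TGFBR1 (ENSG00000106799, chromosome 9, 99104038 to 99154192, plus strand) encodes the type I receptor kinase that phosphorylates SMAD2 and SMAD3. HCT116-WT libraries measured 19.88, 18.78, 17.03, 16.83 and 19.6 TPM. Knockout libraries measured 23.93, 13.24, 15.59, 20.17 and 21.35 TPM. The knockout libraries thus lay on both sides of the HCT116-WT range, with replicates 2 and 3 below it and replicates 1, 4 and 5 above it. As a log2 fold change the difference was 0.0054 (95% interval -0.30 to 0.31, adjusted p-value 0.986 from limma). Without replicates 2 and 3 it was 0.23 (adjusted p-value 0.229 from limma), and with the length and GC trend removed it was 0.19 (adjusted p-value 0.0932 from limma).

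Because both receptors are read from the same library, their ratio does not depend on how libraries are scaled to each other, although a trend with length can still move it. The ratio of TGFBR2 to TGFBR1 TPM was 0.547, 0.560, 0.539, 0.637 and 0.549 in HCT116-WT replicates 1 to 5. It was 0.375, 0.513, 0.444, 0.436 and 0.407 in HCT116-CD276KO replicates 1 to 5. All knockout values lay below all HCT116-WT values, with means of 0.435 ± 0.051 and 0.567 ± 0.040 (SD, n = 5 each). This ratio is given as a description, with no test. TGFBR2 alone already separated the groups, so the ratio is not independent of that result. How often ratios of other genes separate the groups was not computed. The ratios of SMAD3 to SMAD2, of SKIL to SKI and of TGFB2 to TGFB1 overlapped between the groups: SMAD3 to SMAD2 was 0.735 ± 0.042 in HCT116-WT and 0.754 ± 0.046 in HCT116-CD276KO, and SKIL to SKI was 0.274 ± 0.062 and 0.275 ± 0.066 (SD, n = 5 each).

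**Figure D2:**
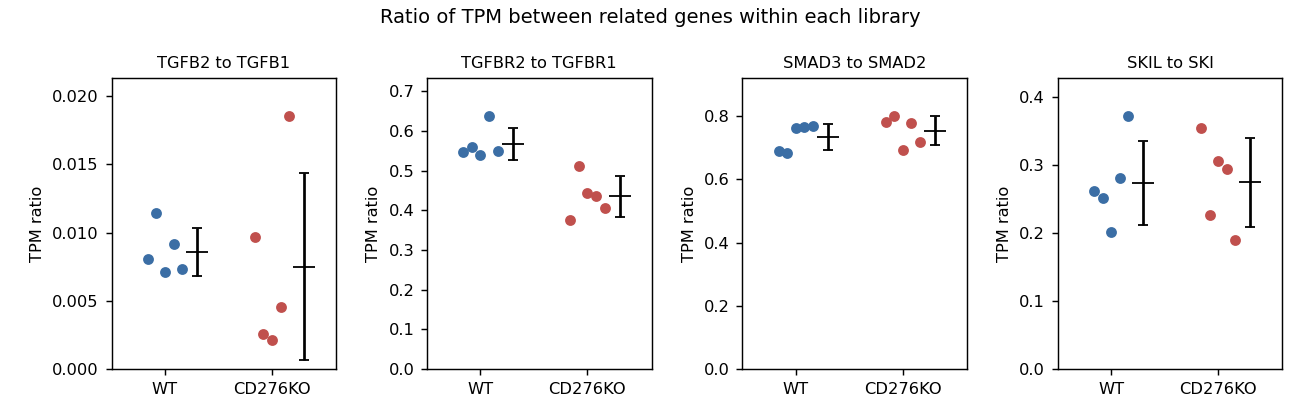
Ratio of TPM between related genes within each library (vertical axis, from 0, no unit), for 5 HCT116-WT libraries (blue) and 5 HCT116-CD276KO libraries (red), with mean ± SD beside the points. TGFBR2 to TGFBR1 separates the groups, at 0.539 to 0.637 against 0.375 to 0.513, and the other 3 ratios overlap.

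TGFBR3 (ENSG00000069702, chromosome 1, 91680343 to 91906335, minus strand) encodes betaglycan, a co-receptor without a kinase that presents ligand to TGFBR2. HCT116-WT libraries had 6.67, 6.57, 4.11, 5.18 and 3.72 TPM of this transcript. Those of the knockout were 9.14, 4.03, 5.1, 7.08 and 5.07 TPM. Both groups spread widely and overlapped. Its log2 fold change was 0.16 (95% interval -0.28 to 0.60, adjusted p-value 0.645 from limma), the highest estimate among the 9 genes tested.

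The libraries were arranged alike in the 3 SMADs, with knockout replicates 2 and 3 lowest in each. SMAD2 (ENSG00000175387, chromosome 18, 47808957 to 47931146, minus strand), a receptor-activated SMAD, stood at 91.75, 81.84, 77.29, 72.6 and 81.84 TPM in wild type libraries and 78.48, 59.91, 63.82, 79.22 and 82.17 TPM in knockout libraries. SMAD3 (ENSG00000166949, chromosome 15, 67063763 to 67195173, plus strand), the other SMAD that TGF-beta receptors activate, stood at 63.45, 56.04, 58.97, 55.54 and 62.89 TPM in wild type libraries and 61.3, 47.93, 44.21, 61.59 and 59.13 TPM in knockout libraries. In both genes knockout replicates 2 and 3 were below every HCT116-WT library and the other 3 knockout libraries were within the HCT116-WT range. The log2 fold changes were -0.16 for SMAD2 (95% interval -0.38 to 0.056, adjusted p-value 0.346 from limma) and -0.12 for SMAD3 (95% interval -0.34 to 0.094, adjusted p-value 0.470 from limma).

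SMAD4 (ENSG00000141646, chromosome 18, 51028528 to 51085045, plus strand) is the common partner of the activated SMADs. The wild type values were 72.86, 67.82, 57.08, 59.94 and 66.59 TPM. Values in the knockout were 64.73, 44.31, 45.61, 57.21 and 75.34 TPM. Knockout replicate 5 was the highest of all 10 libraries and replicates 2 and 3 were the lowest. The log2 fold change was -0.20 (95% interval -0.50 to 0.11, adjusted p-value 0.408 from limma). Without knockout replicates 2 and 3 the log2 fold changes were -0.016 for SMAD2, 0.033 for SMAD3 and 0.016 for SMAD4, and with the length and GC trend removed they were 0.090, 0.088 and 0.025, none with an adjusted p-value under 0.05 from limma. For SMAD2 the removal used a canonical transcript of 34626 bases, the longest of the 10 genes. That length came from GENCODE 44, a later annotation than the one the authors quantified on.

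SKI (ENSG00000157933, chromosome 1, 2227388 to 2310213, plus strand) binds the SMADs and recruits corepressors. Its wild type libraries gave 33.78, 25.69, 32.65, 25.12 and 23.52 TPM. Knockout values were 28.48, 20.97, 14.48, 23.91 and 32.46 TPM. Knockout replicate 3 was the lowest, at 14.48 TPM, and replicate 5 lay within the upper part of the HCT116-WT range. The log2 fold change was -0.25 (95% interval -0.66 to 0.16, adjusted p-value 0.435 from limma), and 0.011 without knockout replicates 2 and 3.

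SKIL (ENSG00000136603, chromosome 3, 170357342 to 170396835, plus strand), also called SnoN, is a related repressor and is itself induced by TGF-beta in responsive cells. It stood at 8.86, 6.45, 6.6, 7.07 and 8.75 TPM in wild type libraries and 10.12, 4.76, 4.44, 7.04 and 6.17 TPM in knockout libraries. The knockout group held both the highest and the lowest of the 10 values. The log2 fold change was -0.23 (95% interval -0.62 to 0.17, adjusted p-value 0.469 from limma), and 0.024 without knockout replicates 2 and 3. For SKI and SKIL the intervals are wide, and changes within them are not excluded with 5 libraries a group.

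**Figure D3:**
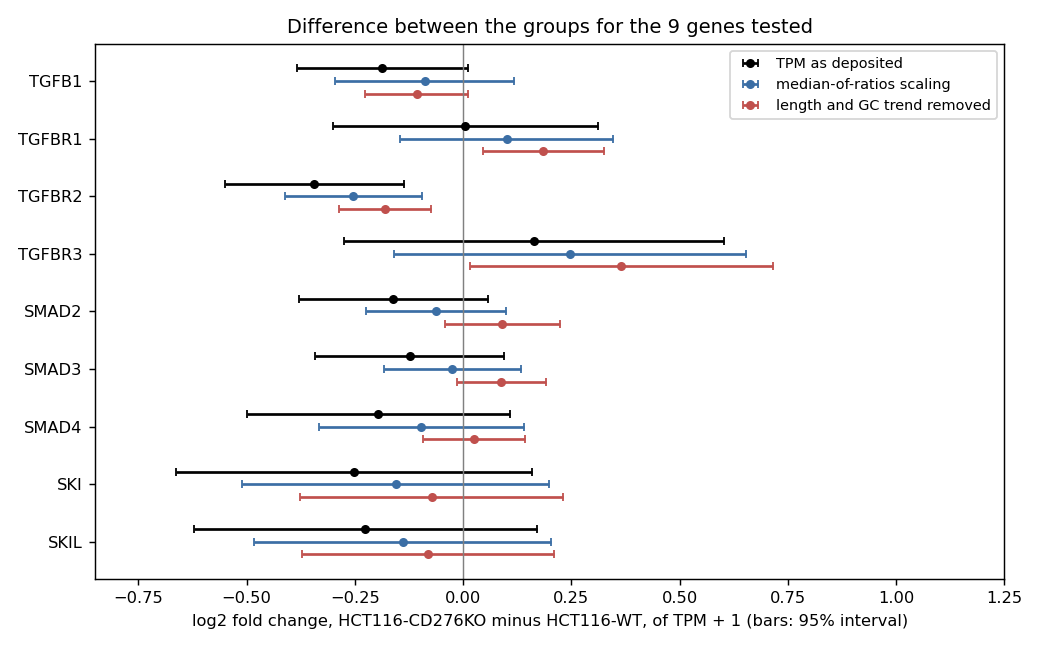
Log2 fold change of TPM + 1, HCT116-CD276KO minus HCT116-WT (horizontal axis), with its 95% interval from limma for the 9 genes tested, on the TPM as deposited (black), after median-of-ratios scaling (blue) and with the trend with transcript length and GC content removed (red). TGFBR2 is the gene of the 9 whose interval lies below 0 in all 3, with estimates of -0.34, -0.25 and -0.18. With the trend removed TGFBR1 and TGFBR3 have estimates of 0.19 and 0.37 and intervals above 0. Their adjusted p-values in that fit are 0.0932 and 0.176 from limma.

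The genes also varied together across the 10 libraries. HCT116-CD276KO replicates 2 and 3 each held the lowest or next lowest value in 8 of the 9 genes tested, with median deviations of -0.37 and -0.35 on the log2(TPM + 1) scale from the mean of each gene over the 10 libraries. The median deviation of the other 8 libraries lay between -0.018 and 0.24. Among the 36 pairs of the 9 genes, Pearson correlations over the 10 libraries were positive in 34, with a median of 0.63 and the highest in SMAD2 and SMAD4 at 0.93. TGFB1 had the lowest correlation, -0.55 with TGFBR3. The genes of a library share its scaling and its trend with length, so these correlations are a description. The 2 libraries with the lowest values are those with the most negative trend with length.

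**Figure D4:**
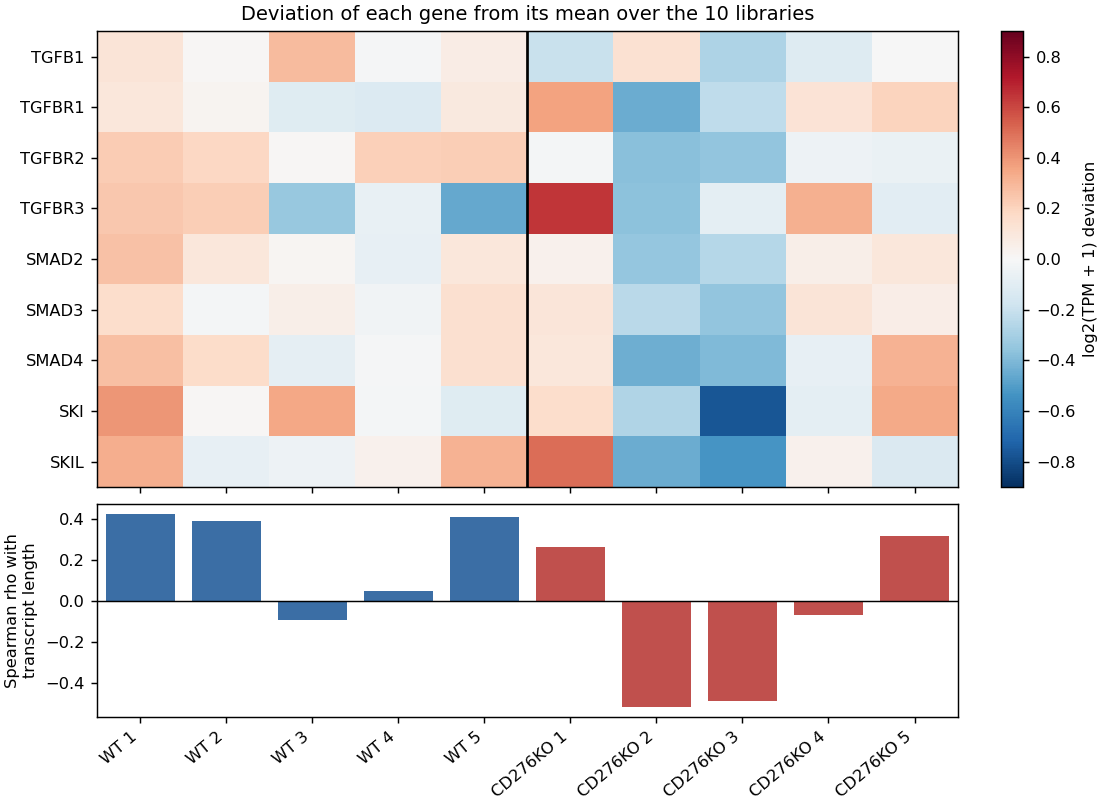
Deviation of log2(TPM + 1) of each of the 9 genes tested from its mean over the 10 libraries (colour, upper panel, 1 column per library) above the Spearman correlation of the deviations of each library with transcript length over genes (bars, lower panel, HCT116-WT blue and HCT116-CD276KO red). HCT116-CD276KO replicates 2 and 3 are low in nearly all genes and have correlations of -0.52 and -0.49.

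Around these 10 genes, 80 further genes of the pathway were looked at in 6 lists, and 54 of them passed the filter of 1 TPM while 26 did not. Of the 54, 6 passed the adjusted threshold of 0.05 in limma, 4 higher and 2 lower in HCT116-CD276KO, or 11.1% where 4.87% of all genes passed. The median log2 fold change of the 54 was -0.17. After removal of the length and GC trend 12 of the 54 passed (22.2%), 8 higher and 4 lower, where 9.64% of all genes passed in that fit. Among them were the same 6. The new ones were ACVR2A, CDKN2B, ID1 and KLF10 as higher and ANGPTL4 and TPM1 as lower. Of the 6 that passed in both fits, ITGB8 reached the filter through HCT116-WT alone. It thus had to differ in order to be tested, and its call is no support for the count. The lists were chosen with earlier results of these data known. Neither share is therefore independent of that choice, and no excess over all genes can be read from them.

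Of the other ligands, 1 of 11 was tested, GDF11, and it did not pass. TGFB3 averaged 0.948 TPM in HCT116-WT and 0.510 TPM in HCT116-CD276KO and was not tested. Of 12 genes for latency and activation of the ligands 7 were tested. All 7 had log2 fold changes below 0, as did 68.1% of all genes. At the adjusted threshold, which 4.87% of all genes passed, 1 of the 7 passed, ITGB8 (ENSG00000105855). Since this gene reached the filter through HCT116-WT alone, its call is no support for this count either. ITGB8 encodes the integrin beta 8 chain, which pairs with the alpha V chain to release TGF-beta from its latent complex. ITGB8 stood at 2.14, 2.1, 1.93, 2.01 and 1.86 TPM in wild type libraries and 0.7, 0.48, 0.7, 0.84 and 0.96 TPM in knockout libraries. The groups did not overlap, all knockout values were under 1 TPM, and the log2 fold change was -0.80 (standard error 0.11, adjusted p-value 0.00129 from limma). Without a pseudocount the log2 ratio of its mean TPM was -1.45. ITGAV, its partner, did not pass, at -0.17 on the log2 scale (limma, adjusted p-value 0.513).

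Of 12 further receptors and co-receptors 7 were tested and 1 passed, where 4.87% of all genes did. BAMBI (ENSG00000095739) encodes a decoy resembling a type I receptor without a kinase, which dampens TGF-beta and BMP signalling. HCT116-WT libraries gave 3.71, 3.84, 3.67, 3.53 and 3.81 TPM. The knockout gave 1.96, 1.92, 2.43, 2.22 and 1.98 TPM. The values were tight within each group, and BAMBI fell by 0.61 on the log2 scale (standard error 0.085, adjusted p-value 0.00173 from limma). Of 4 other SMADs and 19 SMAD regulators and cofactors tested, 0 passed the adjusted threshold in limma, and 0 and 3 of them passed at an unadjusted p-value under 0.05, a threshold that 21.9% of all genes passed. SMAD7 and PMEPA1, feedback inhibitors that TGF-beta induces, averaged under 1 TPM in both groups and were not tested.

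Of 19 genes that TGF-beta or BMP signalling is known to regulate, 16 were tested. At the adjusted threshold 4 of the 16 passed as higher in HCT116-CD276KO, where 0.781% of all genes did. As lower 0 passed, where 4.09% of all genes did. This list too was chosen with earlier results of these data known, so no excess can be read from its counts. With the length and GC trend removed ANGPTL4 and TPM1 passed as lower, at -0.57 and -0.25 on the log2 scale (limma, adjusted p-values 0.0256 and 0.0385). In that fit CDKN2B, ID1 and KLF10 passed as higher as well. The rule for named genes gives ID2, CCN2 and CCN1, and ID3 is added after its values were seen. ID2 and ID3 encode inhibitors of helix-loop-helix factors and are classical BMP targets. ID2 (ENSG00000115738) ranged from 55.2 to 67.1 TPM in HCT116-WT and from 109 to 124 TPM in the knockout, which is 0.95 as a log2 fold change (limma, adjusted p-value 8.59e-06). ID3 (ENSG00000117318) ranged from 44.4 to 60.8 TPM and from 61.8 to 77.4 TPM, which is 0.52 as a log2 fold change (limma, adjusted p-value 0.00834), and without knockout replicates 2 and 3 its adjusted p-value was 0.0609. CCN1 and CCN2 encode secreted matricellular proteins, which YAP as well as TGF-beta can induce. CCN2 (ENSG00000118523) stood at 2.16, 2.08, 2.24, 2.84 and 1.99 TPM in wild type libraries and 3.93, 3.43, 3.2, 4.35 and 5.11 TPM in knockout libraries, which is 0.61 as a log2 fold change (limma, adjusted p-value 0.0153). CCN1 (ENSG00000142871) rose from 14.1 ± 1.18 to 21.0 ± 2.22 TPM (SD, n = 5 each), which is 0.54 as a log2 fold change (limma, adjusted p-value 0.00423). Of the 16 targets, 8 had log2 fold changes above 0 and 8 below, and their median was 0.014.

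**Figure D5:**
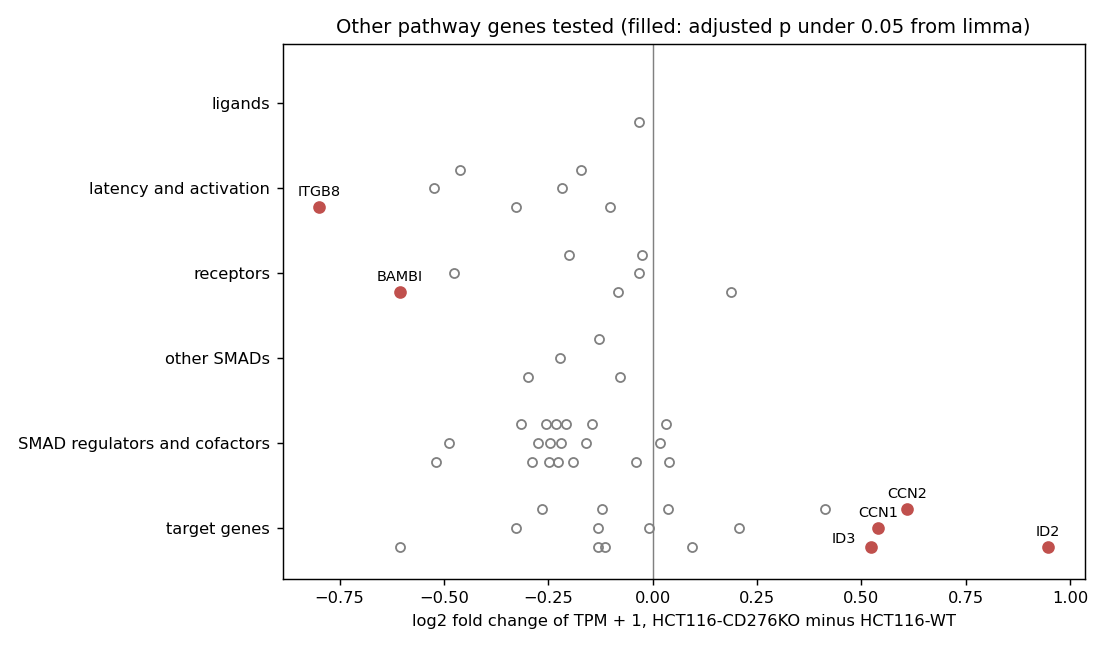
Log2 fold change of TPM + 1, HCT116-CD276KO minus HCT116-WT (horizontal axis), of the 54 other pathway genes tested, by list (rows; height within a row only separates points), with filled points for an adjusted p-value under 0.05 from limma. ITGB8 and BAMBI are lower, at -0.80 and -0.61, and ID2, CCN2, CCN1 and ID3 are higher, at 0.95, 0.61, 0.54 and 0.52. ITGB8 reached the filter through HCT116-WT alone.

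SMAD binding motifs were looked for in the promoter windows that RefSeq gives on GRCh38.p14, from 250 bases before to 50 after each start. These held 22 windows for 9 of the 10 genes, SKI excepted. The palindrome GTCTAGAC, which does not contain the element searched next, was found in 0 of the 22 windows and in 0.202% of all 35116 windows. The element CAGACA, searched on both strands, was in 4 of the 22 windows and in 16.9% of all windows. These 4 stretches are shown so that the matches can be seen, with CAGACA or its reverse complement TGTCTG in capitals, on the plus strand.
TGFB2, chr1:218345271-218345300: ctttgttgaaggCAGACAcgtggttcagag
TGFBR1, chr9:99104023-99104052: tggctgtgtttgTGTCTGaagaaaggacta
TGFBR1, chr9:99104199-99104222: cagtgtCAGACAcagctcaaagta
SMAD3, chr15:67137875-67137904: ttggatttcttcTGTCTGggtgttgccagg
A match of these letters is a description and not a bound site. Both windows of TGFBR2 were without a match.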

How the data were processed

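Polyadenylated RNA of 5 HCT116-WT and 5 HCT116-CD276KO replicates was analysed. Per the methods and the submitters' processing notes, the authors mapped single reads to hg38 with STAR 2.5.2b and quantified Ensembl genes with RSEM 1.3.0 and featureCounts 1.5.1. The authors deposited TPM with 2 decimals; which program gave them is not stated, and libraries summed to about 1000000 TPM. The authors' own test, limma/voom on counts, was not repeated, as counts were not used here.

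Symbols and positions came from GENCODE 44 on hg38. Genes averaging 1 TPM or more over the libraries (13581) were fitted in limma 3.58.1 (R 4.3.3) on log2(TPM + 1), with a variance trend, and adjusted over all genes. The fit was checked on 1 simulated set of normal values for 13581 genes, 200 of them changed by 1 on the log2 scale. It called 196 of these and 11 unchanged genes. The simulated libraries held no trend with length or GC content, so the check does not cover such trends or smaller changes. Exact permutation tests used scipy 1.17.1. Transcript length and GC content were those of the canonical transcript, and trends were removed by loess (span 0.3) for the 13472 genes that have both. Alternatives were other pseudocounts, filters, scalings and variance moderation, a replicate block, each library left out and, added after seeing the data, HCT116-CD276KO replicates 2 and 3 left out together.

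The members and lists were chosen with earlier results of these data known. Named were the 10 genes and, per pathway list, up to 3 genes past the threshold with the largest change. For 1 gene of the target list values are not reported here, and the counts of the lists leave it out.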

Additional observations from a re-analysis of the deposited data

Results flagged for a closer look

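For 16 named genes in both groups (32 groups of 5 values) the gap between the highest or lowest value and its neighbour was set against the range of the group, and 2 passed the limit of 0.71 that chance passes in about 1 of 20 groups, where chance gives 1.6 groups. TGFBR2 was at 9.18 TPM in HCT116-WT replicate 3, while the remaining 4 wild type libraries held 10.5 to 10.9 TPM, which leaves a gap of 0.788 relative to the range. Leaving this library out gave TGFBR2 a log2 fold change of -0.38 and an adjusted p-value of 0.0499 in limma, against -0.34 and 0.0629 with it. ID3 was at 60.8 TPM in the same library, while the remaining 4 held 44.4 to 49.0 TPM, with a gap of 0.716. HCT116-WT replicate 3 had the strongest positive trend with GC content, with a Spearman correlation of 0.61 over genes, and the part of this trend in both values was not tested.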

How the results depend on the processing

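The number of the 10 genes past the threshold was 0 and stayed so under each alternative run except 3: it was 1, TGFBR2, with the length and GC trend removed, without HCT116-WT replicate 3 and without HCT116-CD276KO replicate 1, so that it was between 0 and 1 with each library left out in turn. TGFBR2 had log2 fold changes of -0.18 in the first and between -0.38 and -0.29 with 1 library left out, with adjusted p-values between 0.0467 and 0.154 from limma. The number of other pathway genes past the threshold was 6, and between 6 and 9 with 1 library left out. It was 12 with the length and GC trend removed, and 4 of 43 genes tested at a mean of at least 5 TPM. At that filter ITGB8, BAMBI and CCN2 were not tested, ID2, ID3 and CCN1 passed again, and ANGPTL4 passed as lower. The sign of TGFBR1 changed between -0.084 and 0.12 with 1 library left out. The estimates of SMAD2, SMAD3 and SMAD4 turned to 0.090, 0.088 and 0.025 with the trend removed, and those of SMAD3, SMAD4, SKI and SKIL to 0.033, 0.016, 0.011 and 0.024 without HCT116-CD276KO replicates 2 and 3; the cause was not tested. Whether replicates of the same number share more than that number is not stated. Correlations of their deviations from the group means over all genes tested ranged from -0.18 to 0.12. Replicate 5 alone of the 5 numbers correlated best with its own number. With the replicate number as a block the counts were 0 and 6, and the adjusted p-value of TGFBR2 was 0.0795; over all genes the count fell from 662 to 378. With each library left out it was between 343 and 857, and it was 339 without HCT116-CD276KO replicates 2 and 3 and 1299 with the trend removed. Median-of-ratios scaling and quantile normalization kept every one of the 9 directions.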

Other observations

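The transcripts whose pattern over the 10 libraries was most like that of TGFBR2 were looked up after its values were seen. By Pearson correlation of log2(TPM + 1) among the 13581 genes tested they were SERPINB5 (0.990), RIGI (0.986) and ZBTB5 (0.986). SERPINB5, which encodes the serpin maspin, fell from 51.6 ± 5.09 to 29.9 ± 7.12 TPM (SD, n = 5 each), by -0.79 as a log2 fold change (limma, adjusted p-value 0.0112). RIGI and ZBTB5 had adjusted p-values of 0.102 and 0.0539 from limma. The libraries share their scaling and trends, and these correlations are a description.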
